A study of Sus scrofa with 8 samples.

Results

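Rod photoreceptor nuclei were examined in single-nucleus RNA-seq of pig retinas collected after an intravitreal injection of an AAV vector or of vehicle. A barcode was taken as a rod nucleus if it held at least 1000 UMIs, at least 3 UMIs summed over the rod genes PDE6A, PDE6B, NR2E3, CNGA1 and ESRRB, and 0 UMIs over ARR3, PDE6C, CNGB3, CNGA3, TRPM1, GRM6, GAD1, GAD2, RLBP1 and PTPRC, which mark cones, ON bipolar cells, GABAergic amacrine and horizontal cells, Müller glia and leukocytes. This gave 99275 rods among 364259 barcodes with at least 1000 UMIs and 388491 barcodes in all. The nuclei were thus selected on their measured UMIs of these 15 genes and on depth, so the levels of these genes are given as a description, with no test.

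The animals were female Yucatan minipigs of 3 to 5 months. All received intravitreal Vitrase, a hyaluronidase, in both eyes 2 weeks before the injection, and systemic methylprednisolone before it and weekly after it. The treated eyes received 5e11 vg of AAV2.7m8/CAG-GFP, in which the ubiquitous CAG promoter drives a green fluorescent protein, and the control eyes received buffer. At week 2 the AAV arm was both eyes of animal 7221 and the vehicle arm both eyes of animal 7222, so each arm was 1 animal. At week 4 the AAV arm was the left eyes of animals 7248 and 7249 and the vehicle arm the left eyes of animals 7250 and 7251. Each of the 4 groups carried its own batch label, so within a week a batch difference cannot be told apart from the treatment, and p-values measure only the spread between these retinas.

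Rods are the photoreceptors of dim light: the light-activated pigment turns on the G protein transducin, transducin activates the phosphodiesterase PDE6, and the fall in cyclic GMP closes the CNG channels of the outer segment. Their identity is set by the transcription factors NRL, CRX and NR2E3, and they use much glucose by aerobic glycolysis. Type I interferon signals through IFNAR1 and IFNAR2 to transcription factors that switch on antiviral genes, STAT2 and IRF9 among them, and most nucleated cells can mount this response.

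Genes outside the rule supported the label. SAG, the rod arrestin, had at least 1 UMI in 99.2% to 99.7% of rods of each retina and stood at 6731 to 12131 CPM (UMIs of the gene in the summed rods, scaled to a common total), against 1893 to 2727 CPM in all other nuclei. NRL, a transcription factor of rod identity, was 4.22 to 11.6 times as high in rods. The cone opsin OPN1SW stood at 0.214 to 0.673 CPM in rods against 3.42 to 6.10 CPM in other nuclei. Nuclei just inside the marker threshold, with 3 marker UMIs, numbered 2585 and held 1949.8 to 4516 CPM of SAG, and 2615 nuclei just outside, with 2 marker UMIs, held 786 to 2332 CPM. Another 5258 nuclei met the marker rule with at least 500 but under 1000 UMIs and were left out.

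The median rod held 1515 to 2133 UMIs and 973 to 1259 genes, and the summed rods of a retina held 11893312 to 53423445 UMIs. At week 4 the AAV rods were deeper than the vehicle rods, with medians of 2018 UMIs ± 162 (SD, n = 2) against 1532 ± 23.3, and their median mitochondrial share was 0.0442% ± 0.00594 against 0.0858% ± 0.000885. The groups did not overlap in either measure (exact permutation test, two-sided, p = 0.333, the smallest this design allows). Of 368982 barcode sequences, 18860 occurred in more than 1 of the 32 lanes and 1321 were called rods in more than 1 lane, and lanes were kept as separate nuclei. The part of depth and RNA quality in the results that follow was not tested beyond the settings given beside them.

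Rods made up a larger share of nuclei in the AAV retinas than in the vehicle retinas at week 4, and a smaller share at week 2. At week 4, 39.8% (95% exact binomial interval 39.3 to 40.2) and 44.9% (44.5 to 45.4) of barcodes with at least 1000 UMIs were rods after AAV, against 25.2% (24.8 to 25.6) and 15.4% (15 to 15.7) after vehicle. The difference was 22.1 percentage points (42.4 ± 3.67 against 20.3 ± 6.95, SD, n = 2), with no overlap (exact permutation test, two-sided, p = 0.333, the smallest possible). At week 2 the AAV eyes held 16% and 20.5% rods and the vehicle eyes 26.6% and 24.1%. A stricter set of rods, with no UMI of any of the 75 genes in the wider marker lists of other cell types, held 594 to 1244 nuclei a retina at week 4, or 2.43% and 2.51% of nuclei after AAV and 2.76% and 1.41% after vehicle, a difference of 0.383 points. The rule left out most rods. Of those genes 3 had a UMI in at least 20% of rods in every retina. PRKCA, of the bipolar list, was read in 69.3% and 73.0% of AAV rods and 57.3% and 56.9% of vehicle rods, and BEST1, of the pigment epithelium list, in 39.7% and 38.4% against 25.8% and 22.6%. THRB, of the cone list, was read in 28.0% to 34.8% of rods. Other genes of the lists were read in fewer AAV rods, such as PAX6 in 3.48% and 1.97% against 6.81% and 10.1%. An eased rule without PRKCA, BEST1 and THRB, chosen after the data were seen, gave 16.1% and 18.1% rods after AAV and 11.6% and 5.71% after vehicle, a difference of 8.45 points with no overlap, and at week 2 it gave 6.38% and 9.78% against 11.5% and 9.54%, which overlap. The size of the difference thus depended on the marker rule. The eased rule still left out most rods, so most held a UMI of a list gene other than these 3. At week 4 it kept 8009 of 19766 and 8784 of 21831 rods after AAV. After vehicle it kept 5215 of 11341 and 2408 of 6484. Gene values under either rule are those of a selected part of the rods. A share of nuclei does not tell more rods from fewer other nuclei recovered.

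**Figure D1:**
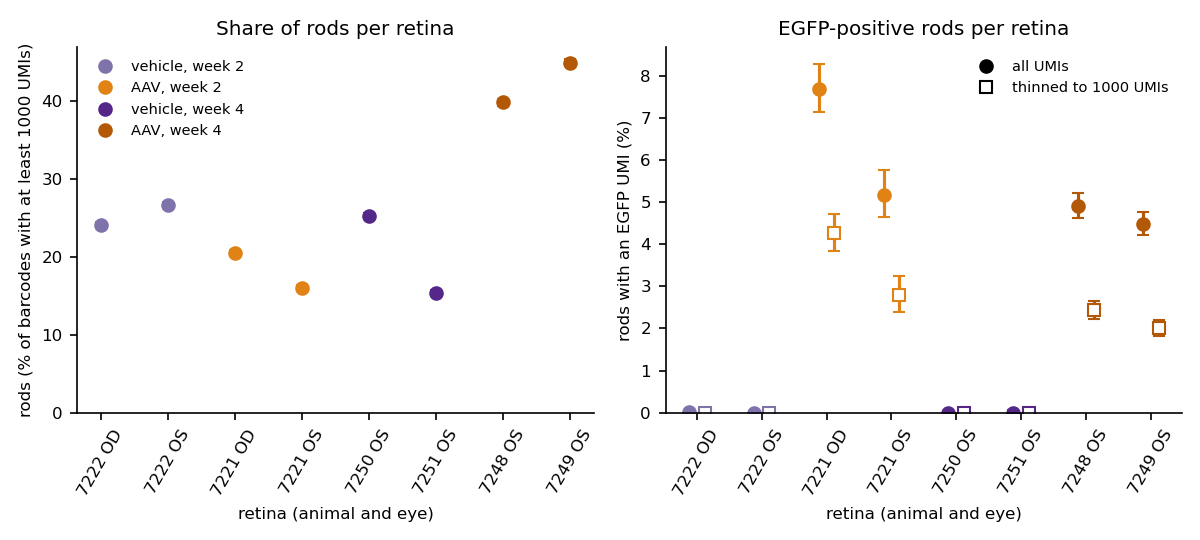
Left, rods as a share of barcodes with at least 1000 UMIs in each of the 8 retinas, and right, the share of rods with at least 1 EGFP UMI, from all UMIs (circles) and thinned to 1000 UMIs (squares), with 95% exact binomial intervals that cover counting error only. The week 4 AAV retinas stand at 39.8% and 44.9% rods, above the other 6, and EGFP is seen in the AAV retinas, with 1 positive nucleus among all vehicle rods.

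The vector's transgene was read in rods of each AAV retina. EGFP had at least 1 UMI in 5.18% (95% exact binomial interval 4.64 to 5.77) and 7.69% (7.13 to 8.27) of rods at week 2 (animal 7221, left eye first), and in 4.91% (4.62 to 5.22) and 4.48% (4.21 to 4.76) of rods of animals 7248 and 7249 at week 4. Among 43051 vehicle rods, 1 held an EGFP UMI, in the right eye of animal 7222. Thinned to 1000 UMIs a nucleus, the shares were 2.79%, 4.27%, 2.43% and 2.02%. The right eye of animal 7221 was the highest by either measure. Most positive rods held 1 EGFP UMI: 42, 64, 110 and 94 rods held at least 2, and the highest nucleus held 56, in animal 7249.

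These shares were set beside those of other barcodes, since free RNA gives UMIs to nuclei that do not make a transcript. In barcodes with at least 3 UMIs of the leukocyte gene PTPRC and no UMI of the 5 rod genes, EGFP at week 4 was seen in 9.68% (6.30 to 14.1) of 248 in animal 7248 and 5.37% (2.89 to 9.01) of 242 in animal 7249, at median depths of 2989.5 and 3116 UMIs against 1904 and 2133 in rods. The rod shares of 4.91% and 4.48% lay at or below those values, and the part of free RNA in either was not tested. The rule for the PTPRC barcodes did not exclude UMIs of bipolar, cone, amacrine or Müller markers. The study found GFP transcripts in every cell population it identified. The PTPRC barcodes are thus not known negatives and set no background for rods. ON bipolar nuclei, gated by their own markers, held EGFP in 13.9%, 29.9%, 10.7% and 14% of nuclei in the same order of retinas, and cones in 4.25%, 9.33%, 3.92% and 4.91%. Both were deeper than rods, with medians of 2902, 4169, 3003 and 3576 UMIs in ON bipolar nuclei and 2424, 3503, 2555 and 3325 in cones. Summed over rods, EGFP stood at 28.7, 42.9, 25.2 and 21.4 CPM in the AAV retinas. In all other nuclei of these retinas it stood at 34.1, 65.5, 27.9 and 28.7 CPM, above the rods of the same retina each time. At week 4 EGFP stood at 14.8 and 14.4 CPM in summed cones, below the rods. In summed ON bipolar cells it stood at 52.8 and 54.9 CPM, above them.

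At week 4, sums per retina were compared between 2 AAV and 2 vehicle retinas with edgeR's quasi-likelihood test over 21051 genes. Of these, 1120 (5.32%) were higher and 1232 (5.85%) lower after AAV at an adjusted p under 0.05, and the median log2 fold change over all genes tested was 0.02. The counts rested on both vehicle retinas: without animal 7250 the test called 64 higher and 25 lower, and without animal 7251 it called 94 and 16. Without animal 7248 it called 1714 and 2334. With rods that held no UMI of the wider marker lists, 10893 genes were tested and 337 were higher and 221 lower, and by the eased rule 16155 were tested and 710 were higher and 384 lower.

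Genes switched on by interferon had the highest median of the 15 functional lists examined. Of 49 measured members of an interferon-stimulated list, 44 were higher, none was lower, and the median log2 fold change was 4.48, against 0.02 over all genes. Leaving out animal 7250 or 7251 left 18 and 20 of them past the threshold, with medians of 4.34 and 4.46. In rods with no UMI of the wider marker lists 33 of 37 were higher, with a median of 4.38, and by the eased rule 43 of 48.

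DDX60, a helicase of antiviral defence on chromosome 14 (chr14:21077491-21163563, Sscrofa11.1), stood at 52.5 and 48.2 CPM in AAV rods and at 0.0494 and 0.0841 CPM in vehicle rods at week 4. The ratio was 806 (95% counting interval 223 to 6654), from 2 UMIs in all the vehicle rods together. IFI44 (chr6:134634679-134649857) stood at 250 and 334 CPM against 0.494 and 1.35 CPM, a log2 fold change of 8.55 ± 0.39 (SE, edgeR adjusted p = 0.000965). It was read in 36.3% and 48.5% of AAV rods and in 0.0882% and 0.170% of vehicle rods. For both genes the AAV and vehicle retinas lay far apart, with no overlap.

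Others of the list were the dynamin-like GTPases MX1 and MX2, which block viruses inside the cell. MX1 stood at 125 and 145 CPM against 3.86 and 4.29 CPM (log2 5.15 ± 0.17, adjusted p = 0.000429). IFIH1, which encodes the double-stranded RNA sensor MDA5, stood at 58.7 and 65.2 CPM against 0.890 and 1.18 CPM (log2 6.03 ± 0.21, adjusted p = 0.000429). RSAD2, which encodes viperin, stood at 10.1 and 13.7 CPM in AAV rods with no UMI in vehicle rods, at least 129-fold higher against a floor of 3 UMIs over both vehicle retinas. The same pattern held for IFI6, at 168 and 311 CPM against 1.24 and 1.26 CPM, for IFI44L, at 190 and 313 CPM against 1.78 and 1.93 CPM, and for HERC5, the ligase that attaches ISG15, at 45.1 and 99.4 CPM against 0.643 and 1.09 CPM. The 5 members that did not pass were GBP2, IFI35, OASL, SAMHD1 and STAT2, with log2 values between 0.14 and 1.53.

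The short sequence that the interferon-activated factors bind, the interferon-stimulated response element, repeats GAAA with a spacing of a pair of bases. Windows of 250 bases before the RefSeq gene start were searched on both strands for GAAA, any 2 bases and GAAA again. It was present in 14 of 46 windows of the interferon list (30.4%), in 48 of 783 windows of genes called higher (6.13%), in 18 of 724 of genes called lower (2.49%) and in 313 of 12297 windows of all genes tested (2.55%). Without the list, 35 of 742 windows of higher genes held it (4.72%). Another motif, TTC, any 3 bases and GAA, which STAT dimers bind, was present in 6.13% of windows of higher genes and 5.59% of all windows. A match describes the letters and does not show binding. Stretches of the windows of 4 list members, among the 5 with the smallest adjusted p that held the motif, are shown, since this list carries the main change in rods, and are taken from RefSeq on Sscrofa11.1, on the strand of the gene and 5′ to 3′, with the motif or its reverse complement in capitals and up to 20 bases on either side, stopping at the gene start.
IFIH1, chr15:68985146-68985188, minus strand: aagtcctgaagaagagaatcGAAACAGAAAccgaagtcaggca
IFI44L, chr6:134679213-134679259, minus strand: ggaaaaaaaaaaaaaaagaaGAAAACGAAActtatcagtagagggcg
OAS2, chr14:38847698-38847735, minus strand: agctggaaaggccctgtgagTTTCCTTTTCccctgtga
ISG15, chr6:63363073-63363122, plus strand: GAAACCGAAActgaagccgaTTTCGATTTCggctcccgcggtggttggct

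**Figure D2:**
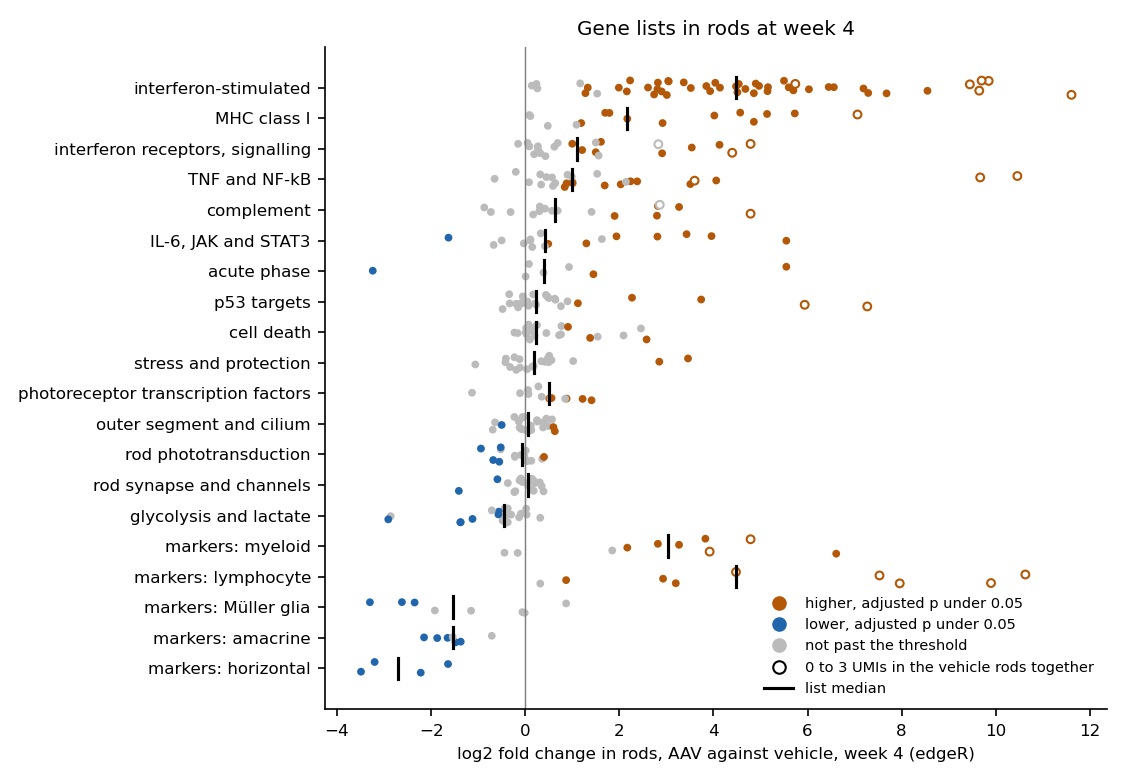
Each point is 1 gene of a list, placed by its log2 fold change in rods at week 4 (AAV against vehicle, edgeR, 2 retinas a group), black bars are list medians, and open points are genes with 0 to 3 UMIs in the vehicle rods together, whose fitted value depends on the prior count and is no bound. The interferon-stimulated list has the highest median of the functional lists, 4.48, and the glycolysis list the lowest, -0.44.

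Transcripts of the interferon list were read in most rods of the AAV retinas. With each nucleus thinned to 1000 UMIs, AAV rods held a mean of 3.12 and 3.17 UMIs of the interferon list at week 2 and 2.88 and 3.65 at week 4, against 0.397, 0.399, 0.416 and 0.458 in vehicle rods. At least 1 such UMI was read in 83.4% to 92.3% of rods of the AAV retinas and in 31.7% to 35.7% of rods of the vehicle retinas. At least 3 were read in 43.4% to 59.9% against 1.09% to 1.67%. Rods with no EGFP UMI held means of 3.10, 3.06, 2.87 and 3.63, and rods with at least 1 held 3.59, 4.41, 3.11 and 4.00, higher than the negative rods of the same retina each time.

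**Figure D3:**
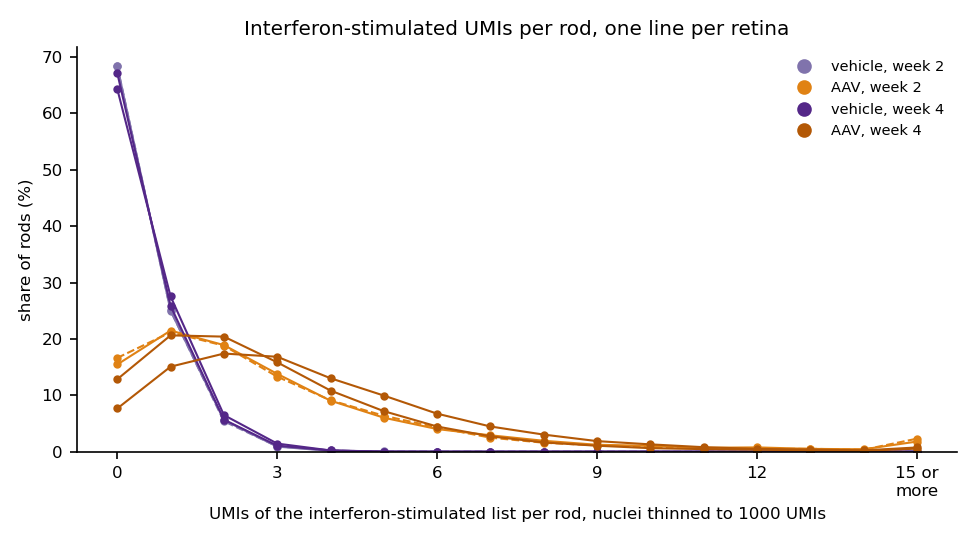
The share of rods (%) with each number of UMIs of the interferon-stimulated list, after thinning every nucleus to 1000 UMIs, with 1 line per retina (dashed for right eyes) and 15 or more pooled. Vehicle rods peak at 0 in all 4 retinas, and AAV rods peak at 1 or 2 in all 4.

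Free RNA bears on the reading of these levels, and the rods can be set beside the other nuclei of the same retinas. At week 4 the summed interferon list stood at 3872 CPM in other nuclei of the AAV retinas, above 2922 and 3661 CPM in their rods. Of the genes given with rod levels above, DDX60 (93.4 CPM), RSAD2 (41.2), MX1 (146), IFIH1 (77.2) and HERC5 (127) stood above both rod values there. IFI6 (199 CPM) and IFI44L (227) lay between the rod values, and IFI44 (138 CPM) lay below both. Leukocyte transcripts rose with AAV in the same sums: 7 of 10 myeloid and 8 of 9 lymphocyte markers tested were higher, beside 5.32% of all genes. The medians of these markers were 3.04 and 4.48 (3.20 for the lymphocyte list with genes at 0 in vehicle rods set to their bound). Their summed levels were 69.1 and 45.2 CPM (myeloid) and 73.7 and 91.1 CPM (lymphocyte) in AAV rods, against 8.26 and 14 and 22.5 and 25.1 CPM in vehicle rods, and 4 of the lymphocyte markers were at 0 in the vehicle rods. IGHM, the immunoglobulin heavy chain, stood at 21.4 and 41.4 CPM in AAV rods, with 1 UMI in vehicle rods. CD163, a macrophage scavenger receptor, stood at 18.3 and 6.20 CPM in rods against 67.2 CPM in other nuclei. The part of this RNA in the rods' immune genes was not tested.

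Receptors and upstream factors of the interferon pathway had a lower list median than its targets, 1.11 against 4.48, though some members lay above some targets. Of 22 receptor and signalling genes measured, 9 were higher and none lower, beside 5.32% higher and 5.85% lower over all genes. IFNAR1 stood at 40.1 and 35 CPM against 18.2 and 21.8 CPM (log2 1.00 ± 0.14, adjusted p = 0.0176) and IFNAR2 at 64.2 and 46.4 CPM against 15.5 and 26.3 CPM (log2 1.5 ± 0.27, adjusted p = 0.0272). IRF1, a transcription factor induced by interferon, rose with a log2 fold change of 3.54 ± 0.31 and CGAS, the cytosolic DNA sensor, with 4.13 ± 0.41. IRF1 stood at 7.56 and 6.05 CPM in AAV rods and was read in 1.48% and 1.36% of them. CGAS stood at 5.67 and 3.72 CPM and was read in 1.03% and 0.774%. In other nuclei of the AAV retinas IRF1 stood at 19.5 CPM and CGAS at 18.8 CPM, above the rods. Both passed by the eased rule, and the part of free RNA in these values was not tested. JAK1, JAK2 and TYK2, the kinases of the pathway, had values of 0.19, 0.27 and 0.05 and did not pass. In rods with no UMI of the wider marker lists 3 of 12 were higher, by the eased rule 7 of 17, and without animal 7250 or 7251 none passed.

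Of 15 genes measured that serve the display of peptides on MHC class I, 11 were higher, none was lower and 4 did not pass. The median was 2.17, and over all genes 5.32% were higher and 5.85% lower. Without animal 7250 or 7251, 4 and 5 of 15 passed, and in rods with no UMI of the wider marker lists 7 of 13 (11 of 15 by the eased rule). B2M, the light chain of class I molecules, stood at 56.9 and 69.5 CPM against 1.04 and 1.60 CPM (log2 5.73 ± 0.26, adjusted p = 0.000965). NLRC5, the transactivator of these genes, stood at 78.1 and 71.0 CPM against 2.13 and 4.88 CPM, and the peptide transporter TAP1 at 39.2 and 35.9 CPM against 2.92 and 1.85 CPM. At week 2 B2M was already apart, at 27.7 and 24.7 CPM in AAV eyes and 1.57 and 0.843 CPM in vehicle eyes. The chaperones CANX and PDIA3, at 0.11 and 0.09, did not pass.

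Inflammatory lists moved in part, with low levels. In the TNF and NF-kB list 12 of 26 were higher, in the complement list 5 of 16, and no member of either was lower, with medians of 0.99 and 0.63, beside 5.32% higher and 5.85% lower over all genes. The chemokine genes CXCL10 (6.20 and 4.60 CPM) and CCL2 (3.41 and 2.83 CPM) had no UMI in vehicle rods of week 4, at least 57.0-fold and 33.1-fold higher. CXCL10 stood at 15 CPM and CCL2 at 7.04 CPM in other nuclei of the AAV retinas, above the rods. The complement genes that passed were C1QA, C1QB, C1QC, C1R and C3AR1, of which the C1Q genes are also myeloid markers, and C3 itself had a value of -0.87 (adjusted p = 0.333). In rods with no UMI of the wider marker lists no member of either list passed, by the eased rule 5 of 21 TNF genes were higher and 1 of 7 complement genes was higher and 1 lower, and without animal 7250 or 7251 0 and 1 of the TNF list and none of the complement list did.

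In the IL-6, JAK and STAT3 list 7 of 17 were higher and 1, the receptor gene CNTFR, was lower. STAT3 stood at 122 and 98.4 CPM against 50.4 and 50.6 CPM, and CEBPD, a transcription factor of the acute phase, at 14.5 and 13.8 CPM against 0.989 and 0.925 CPM (log2 3.96 ± 0.22, adjusted p = 0.00152). Of 25 p53 targets 5 were higher, CDKN1A, PMAIP1, DDB2, PLK2 and FAS, and the median was 0.23. CDKN1A, the cell cycle inhibitor p21, stood at 2.84 and 1.33 CPM against 0 and 0.0841 CPM, a ratio of 64.4 (95% counting interval 11.4 to 2556) with 1 vehicle UMI. It stood at 8.44 CPM in other nuclei of the AAV retinas. PMAIP1 stood at 0.553 and 0.618 CPM in AAV rods and at 2.28 CPM in those other nuclei. In rods with no UMI of the wider marker lists 2 of 16 p53 targets were higher and 1 lower, with a median of 0.11. By the eased rule 2 of 19 were higher and 1 lower, with a median of 0.10. DDB2 and PLK2 passed under both rules. Of 22 cell death genes 3 were higher, BCL2L1, CFLAR and NLRP3, of which BCL2L1 and CFLAR encode inhibitors of apoptosis. NLRP3 stood at 3.87 and 2.53 CPM in AAV rods and was read in 0.607% and 0.417% of them. In other nuclei of the AAV retinas it stood at 17.9 CPM. Of 21 stress genes 2 were higher, TXNIP and TRIB3. Over all genes tested 5.32% were higher, which these small counts are to be read against. Of 7 acute phase genes A2M and PTX3 were higher and TF was lower. Without animal 7250 or 7251 none of the p53 or stress genes passed, 1 and 0 of the cell death genes did, and 3 and 3 of the IL-6 list. BCL2L1 (0.91, adjusted p = 0.264) did not pass in rods with no UMI of the wider marker lists, and passed by the eased rule (adjusted p = 0.0384).

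A2M and DUOX2 rose in rods at week 4, whereas the 4 eyes of week 2 lay close together. A2M (chr5:62406928-62483690), a secreted proteinase inhibitor induced through STAT3, stood at 467 and 378 CPM in AAV rods against 5.68 and 14.1 CPM in vehicle rods (log2 5.55 ± 0.42, adjusted p = 0.00327). At week 2 it stood at 8.51 and 7.14 CPM after AAV and 5.79 and 6.06 CPM after vehicle. DUOX2 (chr1:126620468-126641406), an oxidase that makes hydrogen peroxide, stood at 61.8 and 54.8 CPM against 3.11 and 3.70 CPM at week 4 (log2 4.20 ± 0.16, adjusted p = 0.000552) and at 2.65 and 2.34 against 2.32 and 2.61 CPM at week 2. A2M was read in 36.9% and 33.5% of AAV rods and 0.776% and 1.73% of vehicle rods at week 4. Also higher were ABTB2, at 50.3 and 34.1 CPM against 7.32 and 6.39 CPM, and the cadherin CDH10, at 179 and 142 CPM against 36.6 and 41.3 CPM. In other nuclei A2M stood at 126 CPM after AAV and 32.6 CPM after vehicle, and DUOX2 at 35.8 and 23 CPM. Their AAV values lay below both AAV rod values. ABTB2 stood at 35.6 and 21.7 CPM there and CDH10 at 151 and 143 CPM. After AAV these lay between the AAV rod values.

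**Figure D4:**
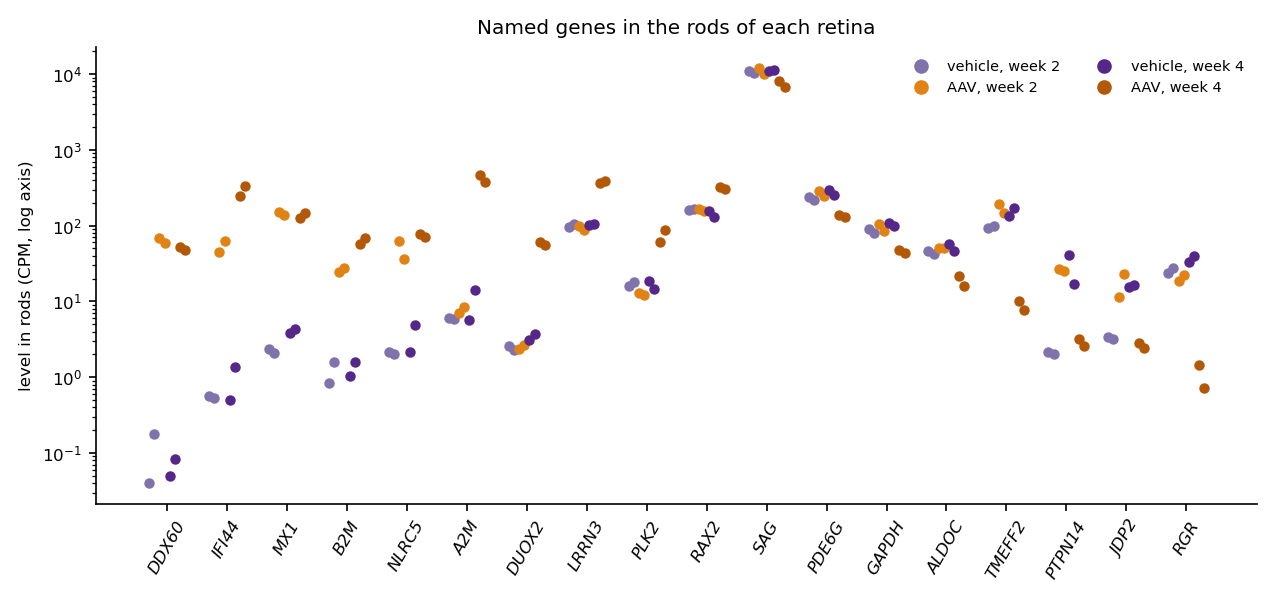
Levels (CPM of the summed rods, log axis) of 18 named genes in each of the 8 retinas. DDX60, IFI44, MX1, B2M and NLRC5 are high in all 4 AAV retinas, A2M, DUOX2, LRRN3, PLK2 and RAX2 in the week 4 AAV retinas, and PTPN14 and JDP2 are high after AAV at week 2 and after vehicle at week 4.

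Genes that rods themselves express more than their neighbours were then set apart, a split made after the values were seen and using the vehicle retinas of the same comparison. Of 937 genes at least 2 times as high in rods as in other nuclei of both vehicle retinas, 74 were higher (7.90%) and 35 lower (3.74%), with a median of 0.03. Of 2768 genes at least 2 times as high in the other nuclei, 181 were higher (6.54%) and 709 lower (25.6%), with a median of -0.92. The latter held 709 of the 1232 genes called lower.

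Among rod-rich genes, ITPRIP rose from 0.544 and 1.35 CPM to 12.8 and 12.1 CPM, and PLK2, a polo-like kinase, from 18.5 and 14.5 to 61.7 and 87.1 CPM. PTX3, a secreted pentraxin of innate immunity, stood at 110 and 111 CPM against 47.1 and 38.6 CPM (log2 1.45 ± 0.14, adjusted p = 0.00706). ROBO2, a receptor for Slit guidance proteins and among the most abundant transcripts of these nuclei, stood at 23186 and 26684 CPM after AAV against 12015 and 10377 CPM (log2 1.25 ± 0.15, adjusted p = 0.0115). None of these was past 2-fold at week 2, where ROBO2 stood at 9849.5 and 12204 CPM after AAV and 15134 and 13889 CPM after vehicle. For each of the 4 the AAV and vehicle retinas did not overlap at week 4.

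Rod-rich genes called lower included FAIM, a gene that counters Fas-induced apoptosis, at 98.7 and 104 CPM against 261 and 199 CPM (log2 -1.09 ± 0.16, adjusted p = 0.0184). ATR, the kinase that answers replication stress, stood at 706 and 554 CPM against 1144 and 1232 CPM (log2 -0.83 ± 0.12, adjusted p = 0.0186). CPT1A, which brings fatty acids into mitochondria, stood at 98.0 and 112 CPM against 189 and 205 CPM.

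Of 16 phototransduction genes 1 was higher and 4 were lower, beside 5.32% and 5.85% over all genes. PDE6G, the inhibitory subunit of PDE6, stood at 137 and 130 CPM against 296 and 251 CPM (log2 -0.94 ± 0.12, adjusted p = 0.0138). SAG was lower at 8148 and 6731 CPM against 11135 and 11493 CPM (log2 -0.52 ± 0.11, adjusted p = 0.0411), as were GUCA1A, an activator of guanylate cyclase (-0.55), and RGS9BP, the anchor of RGS9 (-0.68). RGS9, which speeds the shut-off of transducin, was higher (0.40 ± 0.09, adjusted p = 0.0496). The list median was -0.06. At week 2 no member was past 2-fold. In rods with no UMI of the wider marker lists 4 of 16 were lower and none higher, with a median of -0.32, and there RGS9 (0.16, adjusted p = 0.533) and GUCA1A (-0.55, adjusted p = 0.11) did not pass. By the eased rule 5 were lower and none higher. In rods of at least 2000 UMIs 2 were higher and none lower, with a median of 0.21, and with a limit of 2 marker UMIs 1 was higher and 1 lower. Thinned to 1000 UMIs, 4 were lower and none higher, with a median of -0.15.

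Of the gate's own rod genes, given as a description, PDE6A stood at 2998 and 2832 CPM after AAV and 3375 and 3115 CPM after vehicle at week 4. ESRRB stood at 581 and 493 against 932 and 896 CPM, PDE6B at 528 and 482 against 757 and 667 CPM, CNGA1 at 938 and 1044 against 1333 and 1034 CPM, and NR2E3 at 552 and 373 against 417 and 369 CPM. ESRRB, PDE6A and PDE6B were lower in both AAV retinas, and CNGA1 and NR2E3 overlapped.

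Of 13 photoreceptor transcription factors measured, 5 were higher, none was lower and 8 did not pass, beside 5.32% higher and 5.85% lower over all genes. The list median was 0.51, with RORB at -0.11 and RAX at -1.13. RAX2, a homeobox factor that activates photoreceptor genes, stood at 327 and 301 CPM against 158 and 129 CPM (log2 1.22 ± 0.13, adjusted p = 0.00903). OTX2 stood at 176 and 163 against 109 and 86.0 CPM, NRL at 231 and 231 against 163 and 183 CPM (log2 0.51 ± 0.10, adjusted p = 0.0356), and SAMD11 and PRDM1 had values of 0.56 and 1.41. In rods with no UMI of the wider marker lists 3 of 11 were higher, RAX2, OTX2 and SAMD11 (0.49, adjusted p = 0.0354). By the eased rule 2 of 13 were higher, RAX2 and OTX2, and SAMD11 (0.35, adjusted p = 0.0888) and PRDM1 (1.10, adjusted p = 0.116) did not pass. CRX, at 257 and 290 against 244 and 236 CPM, did not pass. In these 6 the AAV retinas were above both vehicle retinas, as they were for 24.6% of all genes tested. Of the 13 measured, 9 had groups that did not overlap and a positive log2 value.

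In the outer segment and cilium list 2 of 24 were higher and 1 lower, beside 5.32% and 5.85% over all genes. In rods of at least 2000 UMIs 6 were higher and none lower, without animal 7248 the counts were 7 and 2, and without 7250 or 7251 none passed. By the eased rule none was higher and 2 were lower. IMPG2, a proteoglycan of the matrix around the outer segments, stood at 1521 and 1621 CPM against 1136 and 1072 CPM, and the ciliary gene CEP290 at 747 and 840 CPM against 539 and 555 CPM. UNC119, a carrier of lipid-modified proteins to the cilium, was lower at 191 and 180 CPM against 298 and 261 CPM. In the synapse and channel list none of 18 was higher and 2 were lower (2 and 1 in rods of at least 2000 UMIs, 1 and 3 by the eased rule), CACNA1F, the calcium channel of the rod terminal (log2 -0.59 ± 0.10, adjusted p = 0.0241), and RIMS1, of the active zone (log2 -1.41 ± 0.27, adjusted p = 0.0313). In rods with no UMI of the wider marker lists RIMS1 had a value of -0.30 (adjusted p = 0.833), IMPG2 one of 0.33 (adjusted p = 0.113) and CEP290 one of 0.39 (adjusted p = 0.0801), and none of these passed, nor did they by the eased rule. RIMS1 stood at 330 CPM in other nuclei of the vehicle retinas, above both vehicle rod values of 68.2 and 100 CPM.

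Glycolysis was the functional list with the most lower calls, 6 of 23 with none higher and a median of -0.44, beside 5.85% lower over all genes, and 11 of 23 were lower without animal 7248. GAPDH stood at 47.8 and 43.1 CPM against 110 and 100 CPM (log2 -1.12 ± 0.12, adjusted p = 0.00825) and ALDOC at 21.9 and 16 CPM against 56.7 and 46.9 CPM (log2 -1.37 ± 0.18, adjusted p = 0.0152). ALDOA (-0.56), PKM (-0.57), the lactate transporter SLC16A3 (-1.38) and PDK4 (-2.91) were the others. At week 2 no member was past 2-fold and the list median was 0.19, with GAPDH at 85.9 and 105 CPM after AAV and 80.4 and 89.6 CPM after vehicle and ALDOA at 184 and 230 CPM against 124 and 133 CPM. In rods with no UMI of the wider marker lists 5 of 19 were lower, GAPDH among them (log2 -1.15, adjusted p = 0.00225). Mitochondrially encoded transcripts, which in nuclei come from cytoplasm carried along, moved in the same direction: 11 of 13 were lower, with a median of -1.30, and their sum was 1251 and 937 CPM against 3165 and 2981 CPM. Their part in the glycolysis values was not tested. Without animal 7250 or 7251 no gene of the glycolysis, phototransduction, transcription factor or synapse lists passed.

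Of the 10 named genes with the most negative values, RGR, TF, NELL1, PDE10A, ABCA6 and ABCA8 stood higher in other nuclei of the vehicle retinas than in their rods. PTPN14 (29.0 CPM in rods and 15.1 CPM in other nuclei), KLHL14 (13.3 and 5.39 CPM), TMEFF2 (154 and 144 CPM) and CALB1 (14 and 12.1 CPM) did not. RGR, an opsin of the pigment epithelium and Müller glia, stood at 1.45 and 0.711 CPM in AAV rods against 33.2 and 39.8 CPM, and in other nuclei at 5.69 against 87.5 CPM. The transferrin gene TF stood at 7.89 and 2.64 against 46.2 and 58.1 CPM in rods and at 34.0 against 200 CPM in other nuclei. NELL1 stood at 9.78 and 9.98 CPM against 40.5 and 167 CPM, and PDE10A, a cyclic nucleotide phosphodiesterase, at 69.7 and 35.5 CPM against 305 and 590 CPM, with 562 against 2204 CPM in other nuclei. CALB1, a marker of horizontal cells, stood at 1.73 and 1.12 against 9.59 and 18.4 CPM. Over the marker lists, all 4 horizontal, 5 of 7 amacrine and 4 of 10 bipolar markers were lower in AAV rods. So were 3 of 8 Müller, 2 of 4 ganglion cell and 1 of 6 endothelial markers. None of 5 cone or 3 astrocyte markers passed, and over all genes tested 5.85% were lower. Of the bipolar markers CABP5 was higher, and of the pigment epithelium markers BEST1 was higher and RGR lower. Summed horizontal markers stood at 3.76 and 3.24 CPM against 16.1 and 28.4 CPM, and summed Müller markers at 67.0 and 35 against 106 and 151 CPM. The part of RNA from these cells in the lower calls was not tested.

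At week 2 each arm was 1 animal, so no test was made and genes were described by a fold over 2 with the eyes of the animals not overlapping. Of 16434 genes with a mean of at least 1 CPM, 322 (1.96%) were higher and 69 (0.420%) lower after AAV. Of 46 interferon-stimulated genes 43 were higher, with a median log2 fold of 3.58 (with 1 CPM added). ISG15, a ubiquitin-like modifier, stood at 59.9 and 91.6 CPM after AAV against 0.393 and 0.482 CPM at week 2, and at 16.1 and 23.7 against 0.494 and 0.420 CPM at week 4. RIGI, the RNA sensor, stood at 62.7 and 91.7 CPM after AAV at week 2 and 24.7 and 23.6 CPM at week 4, and its vehicle levels lay between 2.72 and 3.62 CPM in all 4 eyes. IFI44 had the other order, with 63.1 and 45.2 CPM at week 2 and 250 and 334 CPM at week 4. No list member passed the test of weeks that follows, in which few genes of any kind passed, and IFI44 had a difference of 2.05 ± 0.64 (adjusted p = 0.163).

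Over 16288 genes with values at both weeks, 820 were called higher at week 4 and 315 were past 2-fold at week 2, and 118 were shared, 14.4% of the week 4 and 37.5% of the week 2 genes. For lower genes the lists held 1121 and 60 and shared 1, whereas 73 of the genes lower at week 4 were higher at week 2. PTPN14, a phosphatase, stood at 25.2 and 27.1 CPM after AAV against 2.04 and 2.17 CPM after vehicle at week 2, and at 3.23 and 2.62 against 41.2 and 16.8 CPM at week 4. JDP2, a repressor of the AP-1 family, stood at 23.1 and 11.4 against 3.18 and 3.41 CPM at week 2 and at 2.84 and 2.41 against 15.7 and 16.5 CPM at week 4. In both genes the vehicle rods of the weeks differed from each other in the order opposite to the AAV rods. Summed horizontal cell markers had the same order, with 28.1 and 31.4 CPM after AAV against 15.2 and 13.5 CPM at week 2 and the reverse at week 4, and their part in these genes was not tested.

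The difference in AAV effect between weeks was tested over the 6 animals, with edgeR and a week by treatment term. Of 23231 genes, 5 (0.0215%) had a more positive effect at week 4 and 6 (0.0258%) a more negative one, and 4566 had an unadjusted p under 0.05. DUOX2 had a difference of 4.28 ± 0.29 (log2, SE, adjusted p = 0.0191), and LRRN3, a leucine-rich repeat protein of neurons, one of 2.13 ± 0.19 (adjusted p = 0.0454). LRRN3 stood at 366 and 386 CPM after AAV at week 4 and at 88.8 to 106 CPM in the rods of the other 6 retinas. The other 3 with a positive difference had no symbol. For A2M the difference was 5.25 ± 0.64 and missed the threshold (adjusted p = 0.0659). TMEFF2, JDP2, KLHL14, PTPN5, PTPRO and 1 gene without a symbol had negative differences, and TMEFF2 led with -4.78 ± 0.30 (adjusted p = 0.0191), from 147 and 193 CPM after AAV at week 2 to 10.2 and 7.73 CPM at week 4. These levels came from few nuclei: TMEFF2 was read in 3.96% and 2.58% of AAV rods at week 2, and among vehicle rods of week 4 it was read in 1.98% and 2.99%, PTPRO in 3.09% and 3.95%, JDP2 in 1.75% and 2.21%, PTPN5 in 1.17% and 1.74% and KLHL14 in 0.414% and 0.54%. By the eased rule the week 4 values of PTPN5 and PTPRO were -0.28 (adjusted p = 0.874) and -1.20 (adjusted p = 0.135). Those of TMEFF2 and JDP2 were -1.55 (adjusted p = 0.0391) and -2.07 (adjusted p = 0.031). In rods with no UMI of the wider marker lists TMEFF2 had -2.02 (adjusted p = 0.0799). DUOX2 and LRRN3 passed under both rules. With 1 animal per arm at week 2, the spread there was not measured and was assumed to equal that of week 4. With the right eyes as the week 2 samples KLHL14, LRRN3 and PTPN5 missed the threshold (adjusted p = 0.0692 each), and with the left eyes KLHL14 and PTPN5 missed it too (adjusted p = 0.0503 each).

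The AAV effect at week 4 was compared between rods and 2 other neurons gated from the same retinas, with the retina as a block. Against cones (8001 nuclei in all 8 retinas), 115 of 16865 genes (0.682%) had a more positive effect in rods and 144 (0.854%) a more negative one. Against ON bipolar cells (14843 nuclei), 231 of 18690 (1.24%) were more positive and 676 (3.62%) more negative. In cones alone 44 of 11778 genes were higher (0.374%) and 23 lower (0.195%), and in ON bipolar cells 218 of 15009 were higher (1.45%) and 143 lower (0.953%), with fewer nuclei than in rods.

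A2M, DUOX2 and LRRN3 separated rods from ON bipolar cells. A2M stood at 132 and 143 CPM in ON bipolar cells after AAV and 110 and 134 CPM after vehicle, so the rods moved from below that level to above it (difference 5.39 ± 0.32, adjusted p = 0.00289). DUOX2 stood at 80.0 and 69.0 against 52.3 and 67.8 CPM there (difference 3.81 ± 0.15, adjusted p = 0.000822), and LRRN3 at 78.4 and 81.7 against 77.5 and 77.5 CPM (1.86 ± 0.12, adjusted p = 0.00296). Against cones DUOX2 also differed (3.07 ± 0.41, adjusted p = 0.00691). For A2M and LRRN3 the differences of 2.26 (adjusted p = 0.0667) and 0.50 (adjusted p = 0.238) missed the threshold, and cones alone had log2 fold changes of 3.20 and 1.37.

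Within the interferon list, 6 of 48 members had a more positive effect in rods than in ON bipolar cells and 3 a more negative one, beside 1.24% and 3.62% over all genes, named here after their values were seen. With 3 of 48, the more negative count is close to the share over all genes. MX1, OAS1, OAS2, IRF7, CMPK2 and XAF1 were the 6. MX1 rose to 54.4 and 63.2 CPM in ON bipolar cells from 3.57 and 6.82 CPM, less than in rods (difference 1.55 ± 0.26, adjusted p = 0.0233). IRF9 and STAT2, parts of the interferon-activated factor, were among the members with a more negative effect. STAT2 stood at 99.9 and 81.3 CPM against 31.1 and 35.2 CPM in ON bipolar cells, and at 116 and 94.6 against 100 and 103 CPM in rods (difference -1.37 ± 0.13, adjusted p = 0.00713). IRF9 stood at 51.8 and 46.4 CPM against 1.47 and 2.86 CPM in ON bipolar cells (difference -2.34 ± 0.24, adjusted p = 0.00788). In the vehicle retinas rods stood above ON bipolar cells in both genes. Against cones 3 of 48 were more positive in rods, OAS2, UBE2L6 and XAF1, and none was more negative. Over all genes of the cone comparison 0.682% were more positive and 0.854% more negative.

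**Figure D5:**
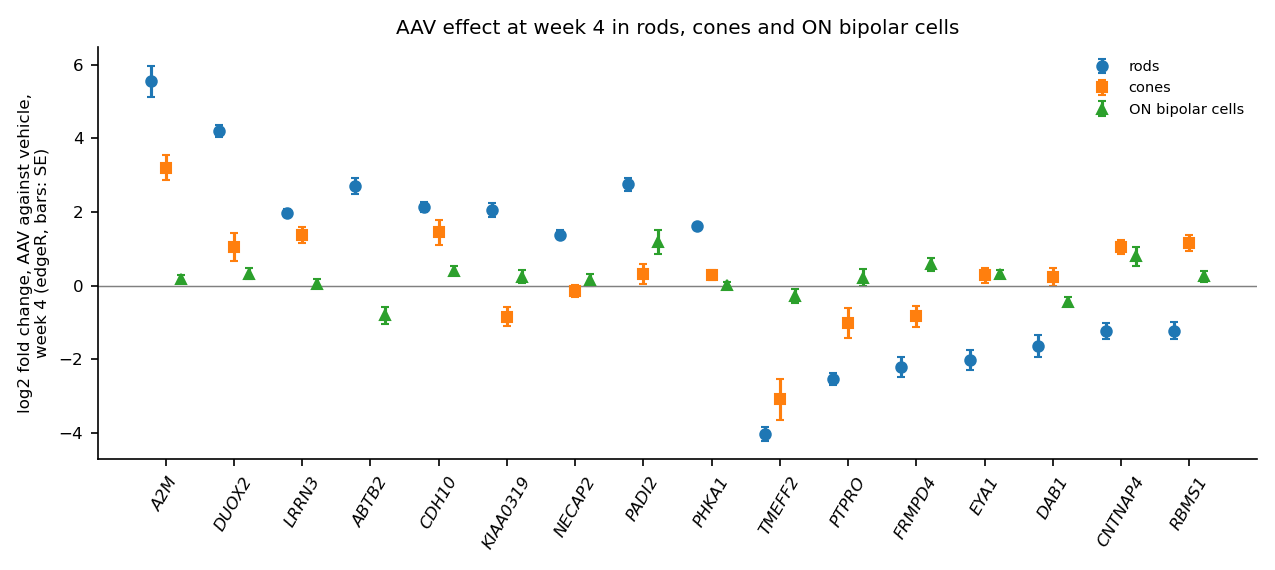
The log2 fold change at week 4 (AAV against vehicle, edgeR within each cell type, 2 retinas a group, bars are SE) of 16 genes in rods, cones and ON bipolar cells. A2M, DUOX2 and LRRN3 lie at 5.55, 4.20 and 1.96 in rods and at 0.18, 0.32 and 0.05 in ON bipolar cells, and ABTB2 was not tested in cones alone.

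Other genes set rods apart from cones. KIAA0319 stood at 98.0 and 112 CPM against 23.0 and 31.6 CPM in rods, and at 47.2 and 78.5 against 129 and 105 CPM in cones (difference 2.84 ± 0.27, adjusted p = 0.00196). PHKA1, a subunit of the kinase that starts glycogen breakdown, stood at 649 and 635 against 213 and 236 CPM in rods and at 270 and 272 against 243 and 218 CPM in cones (1.24 ± 0.14, adjusted p = 0.00374). PADI2, which citrullinates proteins, stood at 47.7 and 41.2 against 6.08 and 8.16 CPM in rods and at 21.1 and 14 against 13.1 and 16.1 CPM in cones. EYA1, a developmental phosphatase and coactivator, was lower in rods, at 7.15 and 4.16 against 27.5 and 20.8 CPM, and stood at 120 and 77.7 against 94.8 and 73.5 CPM in cones (-2.38 ± 0.16, adjusted p = 0.000412). By the eased rule its value in rods was -0.31 (adjusted p = 0.689). CLSTN2 had the most positive value named, 4.23, at 468 and 41.5 against 31.2 and 25.2 CPM in rods and at 15.1 and 3.11 against 13.9 and 26.3 CPM in cones. Its rods were uneven between the AAV animals, and without animal 7248 the difference was 3.17 (adjusted p = 0.0178).

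Rods with an EGFP UMI were compared with rods without one inside the 3 AAV animals, with the animal as a block (2922 positive and 53302 negative rods). Of 18580 genes 868 (4.67%) were higher and 51 (0.274%) lower in positive rods. Without animal 7221 the counts were 517 and 172, and with at least 2 EGFP UMIs as positive 965 and 497. The positive rods were deeper, with median depths of 2120.5, 1906, 2172 and 2458 UMIs against 1936, 1776, 1893 and 2117 in negative rods of the same retinas. Markers of other cells were higher with them: 4 of 4 ganglion cell markers (median 1.81), 3 of 3 horizontal (1.74), 3 of 6 amacrine (0.83) and 2 of 3 astrocyte markers (1.05) passed, and their part in these counts was not tested. Among the leading higher genes were ANO4 (1.72 ± 0.09, adjusted p = 2.25e-05), FSTL4 (1.72 ± 0.10), the calcium release channel RYR2 (1.61) and tenascin-R (TNR, 1.34). When 2911 positive rods were set against negative rods of matched depth, 46 of 12609 genes (0.365%) were higher and 15 (0.119%) lower, led by mitochondrially encoded transcripts such as COX1 (1.45 ± 0.08, adjusted p = 9.87e-08). After this matching 2 of 3 ganglion cell markers were still higher, with a median of 1.26, and none of the horizontal, amacrine or astrocyte markers tested passed.

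Of these, 12 of the 13 mitochondrial transcripts tested were higher in positive rods, in both comparisons. With rods over 0.5% mitochondrial UMIs also left out, edgeR called 0 genes, and 608 of 12300 had an unadjusted p under 0.05. Of the interferon list 7 of 49 were higher in positive rods and 2 of 46 after depth matching, beside 4.67% and 0.365% over all genes. The 2 were IFI6 (0.49 ± 0.08, adjusted p = 0.00977) and ISG15 (0.64 ± 0.12, adjusted p = 0.0308). The list medians were 0.29 and 0.10. RSAD2 passed before matching (0.84 ± 0.14, adjusted p = 0.00412) and not after (0.10, adjusted p = 0.952). A rod without an EGFP UMI may still carry the vector, since most positive rods held 1 UMI.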

How the data were processed

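Nuclei of 8 retinas (4 lanes each, 32 in all) were sequenced by droplet single-nucleus RNA-seq. Per the labels, the submitters' processing notes and the study's methods, the authors aligned reads with Cell Ranger 8.0.0 to Sscrofa11.1 with the vector's EGFP added, and deposited UMI counts per gene and barcode in filtered matrices, 1 per lane, whose smallest barcode held 500 UMIs. Counts were used as deposited, and columns of another series numbered 0.

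Here rods were selected by the stated rule, and their UMIs were summed per retina. No doublet caller was run, and no free RNA was subtracted. Week 4 was tested with edgeR 4.0.16 (R 4.3.3, limma 3.58.1; TMM, filterByExpr, quasi-likelihood test, Benjamini-Hochberg adjustment over all genes tested, threshold 0.05). Week 2 was described as log2 of CPM with 1 CPM added, over genes with a mean of at least 1 CPM. Differences between weeks and between cell types were interaction terms, the latter with the retina as a block. CPM are scaled to the summed rods' total UMIs, or to those of the cell type named. Intervals are exact binomial at 95% and cover counting error only. Each SE of a log2 value was derived as that value, without its sign, over the square root of the F statistic of its test. A fold against a group with no UMI was computed against a floor of 3 UMIs over both vehicle retinas. Total UMIs per retina were 121544835 to 173614051. Fits were also run on simulated counts with known changes, and the outcome is not given here. Sums, tables and plots used Python 3.11.15 with numpy 2.4.6, scipy 1.17.1, pandas 2.3.3 and matplotlib 3.10.9. Of 35683 genes, 18049 had no symbol and stayed in the fits by their ID, and 77 were named from a table of gene names.

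Named genes were the 10 most positive and 10 most negative at week 4 past the threshold with no overlap and at least 10 CPM in the higher group, up to 4 of each functional list with the smallest adjusted p, any member that went against its list, EGFP, the gate genes, CDKN1A, CCL2 and CXCL10, 5 a direction in each interaction, and the leading gene of each marker list. Any other gene was named after its values were seen. The members and lists were chosen with earlier results of these data known. Alternatives were other scalings, DESeq2 1.42.0, filters, depth and marker limits, thinning, matched negatives and leaving out each retina. Some genes and sequences are not reported here.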

Additional observations from a re-analysis of the deposited data

Results flagged for a closer look

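The AAV effect in rods differed between weeks, by a test of the week by treatment term, in 5 genes with a more positive and 6 with a more negative effect at week 4. The log2 differences were 4.28 for DUOX2 and 2.13 for LRRN3. They were -4.78 for TMEFF2, -4.77 for JDP2, -4.31 for KLHL14, -3.57 for PTPN5 and -3.32 for PTPRO. Week 2 held 1 animal per arm, whose spread was assumed to equal that of week 4, so the test rests on that assumption. With the right eyes as the week 2 samples KLHL14, LRRN3 and PTPN5 missed the threshold, and with the left eyes KLHL14 and PTPN5 did. These differences include the difference between the vehicle animals of the weeks.

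The AAV effect at week 4 differed between rods and cones, by the cell type by treatment term, in 115 genes with a more positive and 144 with a more negative effect in rods. The log2 differences of the leading genes were 4.23 for CLSTN2, 2.84 for KIAA0319, 2.35 for PADI2, 1.44 for NECAP2 and 1.24 for PHKA1. In the other direction they were -2.45 for RBMS1, -2.38 for EYA1, -2.37 for CNTNAP4, -2.00 for DAB1 and -1.46 for CACNA2D3. By the eased rule the week 4 log2 values in rods were 0.37 for RBMS1, -0.31 for EYA1, -0.18 for CNTNAP4 and -0.92 for DAB1. None of these passed (edgeR, adjusted p from 0.0624 to 0.812), whereas CACNA2D3, KIAA0319, PADI2, NECAP2 and PHKA1 did. In rods with no UMI of the wider marker lists DAB1 passed, with -1.30 (edgeR adjusted p = 0.0262). CLSTN2 stood at 468 and 41.5 CPM in AAV rods, and its week 4 value in rods missed the threshold (edgeR adjusted p = 0.093).

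Between rods and ON bipolar cells the same term was past the threshold in 231 genes with a more positive and 676 with a more negative effect in rods. The log2 differences of the leading genes were 5.39 for A2M, 3.81 for DUOX2, 3.44 for ABTB2, 1.86 for LRRN3 and 1.67 for CDH10. In the other direction they were -3.78 for TMEFF2, -2.79 for FRMPD4, -2.40 for PHACTR3, -2.38 for PTCHD4 and -2.15 for SHANK2. By the eased rule the week 4 log2 values in rods were -0.02 for FRMPD4, -0.70 for SHANK2, -1.14 for PTCHD4 and -1.53 for PHACTR3. None of these passed (edgeR, adjusted p from 0.0611 to 0.986). TMEFF2 passed with -1.55 (adjusted p = 0.0391), as did A2M, DUOX2, ABTB2, LRRN3 and CDH10. Cones and ON bipolar cells had fewer nuclei than rods, and the part of free RNA in these differences was not tested.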

How the results depend on the processing

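The week 4 counts of 1120 higher and 1232 lower genes were 1888 and 2052 with no low-count filter, 337 and 221 in rods with no UMI of the wider marker lists, 710 and 384 by the eased rule (chosen after seeing the data), and 105 and 2 when week 2 was pooled in with week as a term. Thinned to 1000 UMIs the lower count was 736, and in rods of at least 2000 UMIs 1935. With library size alone the split was 861 and 1366, or 38.7% higher of all calls against 47.6%. Leaving out 1 retina gave 64 to 1714 higher and 16 to 2334 lower: 1714 and 2334 without animal 7248, 64 and 25 without 7250, and 94 and 16 without 7251. The other settings stayed within 1.5 times. Of the named genes 97 had a call at week 4, and 70 lost it without animal 7250, 66 without 7251 and 75 with week as a term. The set with no UMI of the wider marker lists, a selected minority of rods, tested 59 of them and kept 48. There 1 turned, FRMPD4, with a log2 value of 0.06 (adjusted p = 0.975), and 10 missed the threshold: TMEFF2 (-2.02), PTPRO (-1.29), RIMS1 (-0.30), RGS9 (0.16), CEP290 (0.39), IMPG2 (0.33), GUCA1A (-0.55), BCL2L1 (0.91), BCL3 (2.91) and IL10RB (0.93), with adjusted p from 0.0799 to 0.833. The eased rule tested 80 and kept 61. There RBMS1 turned, with 0.37 (adjusted p = 0.601), and 18 missed the threshold. The cause was not tested for any of these.

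The 11 genes that differed between weeks were 1288 by DESeq2's test, 1822 with no filter and 6 with the right eyes as the week 2 samples. The 259 genes of rods against cones were 836 with no filter and 95 to 721 without 1 retina (95 without 7249, 721 without 7250, 427 without 7251). The 907 of rods against ON bipolar cells were 2278 with no filter, 536 when thinned and 223 to 981 without 1 retina (223 without 7249, 586 without 7250, 250 without 7251).

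EGFP-positive against negative rods gave 919 genes, 61 when matched on depth, 0 when rods over 0.5% mitochondrial UMIs were also left out (chosen after seeing the data), 397 when thinned and 1462 with at least 2 EGFP UMIs as positive. Leaving out 1 animal gave 689 to 1497, the latter without 7248. With no replicate block it gave 0 by edgeR, with 554 of 18585 genes at an unadjusted p under 0.05. No paired analysis was possible because the AAV and vehicle retinas came from different animals and the labels give no number or batch that links them. The mean share of EGFP-positive rods at week 4, 4.70%, was 5.80% in rods of at least 2000 UMIs, 3.62% with no UMI of the wider marker lists, 4.22% by the eased rule, 2.22% when thinned and 0.494% with at least 2 EGFP UMIs, and 4.91% and 4.48% in the single retinas of week 4, against 5.18% and 7.69% in those of week 2. The difference in rod share was 20.7 to 24.8 points in other settings and 17.2 to 27.0 without 1 retina, 8.45 by the eased rule and 0.383 with no UMI of the wider marker lists. Rods held a median of 1515 to 2133 UMIs, so depth limits each share of rods with a UMI, as the thinned values show.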
